A study of Mus musculus with 6 samples.

Results

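*Phf6* and 9 genes for subunits of the NuRD complex, *Chd4*, *Rbbp4*, *Rbbp7*, *Hdac1*, *Hdac2*, *Mta1*, *Mta2*, *Mbd3* and *Gatad2a*, were followed in RNA-sequencing of mouse AML cells. The members were taken by gene name, 10 of the 54532 genes of the deposited table, and all 10 had enough reads to be tested. RNA came from leukemia cells that carry the RUNX1-ETO9a fusion (RE9a), a truncated form of a fusion protein found in human AML, delivered with GFP by a retrovirus. The *WT Phf6,RE9a* group (3 libraries, replicates 1, 2 and 3) descends from *Phf6* fl/y cells, which carry the floxed allele without Cre. The *VC Phf6,RE9a* group (3 libraries, replicates 11, 12 and 13) descends from *Vav1-Cre;Phf6* fl/y cells, in which Cre under the *Vav1* promoter acts in blood cells. Both groups started from lineage-negative fetal liver cells and were grown by serial transplantation into male mice, and GFP+ cells were sorted from the bone marrow of the recipients. The control group carries neither Cre nor a non-floxed *Phf6* allele, so an effect of Cre itself cannot be told apart from the loss of *Phf6*. Nothing in the labels tells if replicates stem from separate leukemias or mice, so the p-values measure the spread between these libraries, which may be technical.

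PHF6 is a nuclear zinc finger protein encoded on chromosome X and mutated in human leukemia, and it is known to bind NuRD through RBBP4. NuRD, the nucleosome remodelling and deacetylase complex, joins an ATP-driven remodeller of the CHD family to the histone deacetylases HDAC1 and HDAC2. MTA proteins form the scaffold that holds the deacetylases and the histone-binding proteins RBBP4 and RBBP7. MBD2 or MBD3 link the parts and cannot share 1 complex, and GATAD2A or GATAD2B bridge them to the remodeller. The subunits come in paralogs that replace one another, so the composition of the complex can differ between cell types.

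The promoters of *Chd4* and *Mta1*, the members besides *Phf6* that were lower in *VC Phf6,RE9a* cells, are shown with that of *Mta2*, the paralog of *Mta1* that did not pass the test. The first of 2 RefSeq windows is given for *Chd4*. Each window covers 250 bases before and 50 bases after the transcription start in RefSeq (GRCm38.p6), and capitals mark the letters of 5 motifs searched on both strands. These are RUNX (TGTGGT), the E-box (CACGTG), the CCAAT box (CCAAT), the GC box (GGGCGG) and the ETS motif (CCGGAA), which overlap each other only where 1 run of capitals holds more than 1 match.
*Chd4* (chr6:125095731-125096030, + strand): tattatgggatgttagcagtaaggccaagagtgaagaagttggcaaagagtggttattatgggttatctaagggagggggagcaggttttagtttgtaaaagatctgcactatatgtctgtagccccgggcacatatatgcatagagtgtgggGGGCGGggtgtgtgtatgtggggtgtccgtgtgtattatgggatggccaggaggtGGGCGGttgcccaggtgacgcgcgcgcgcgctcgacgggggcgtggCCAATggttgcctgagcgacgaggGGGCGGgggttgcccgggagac
*Mta1* (chr12:113098028-113098327, + strand): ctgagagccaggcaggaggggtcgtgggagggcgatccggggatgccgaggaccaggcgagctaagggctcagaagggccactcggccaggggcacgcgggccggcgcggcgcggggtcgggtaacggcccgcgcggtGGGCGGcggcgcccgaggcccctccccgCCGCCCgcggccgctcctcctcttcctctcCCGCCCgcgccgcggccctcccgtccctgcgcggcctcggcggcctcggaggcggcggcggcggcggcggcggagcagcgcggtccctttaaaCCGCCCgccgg
*Mta2* (chr19:8941670-8941969, + strand): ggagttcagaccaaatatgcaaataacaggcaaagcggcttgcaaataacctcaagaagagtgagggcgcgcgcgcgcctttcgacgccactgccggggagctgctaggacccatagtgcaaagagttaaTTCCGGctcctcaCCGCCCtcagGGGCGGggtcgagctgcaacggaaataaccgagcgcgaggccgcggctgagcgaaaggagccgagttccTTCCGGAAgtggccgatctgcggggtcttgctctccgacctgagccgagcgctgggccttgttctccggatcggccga
The *Chd4* window holds 3 GC boxes and 1 CCAAT box, the *Mta1* window 4 GC boxes, and the *Mta2* window 2 GC boxes and 3 ETS matches, of which a pair overlaps just before the start. None of these 3 windows holds the RUNX letters. Among the windows not shown, those of the members *Rbbp4* and *Hdac2* hold 1 RUNX match each. A window of the further subunit *Gatad2b* holds 2. Of the 32851 promoter windows in the table, 35.7% hold the GC box, 37.4% the CCAAT box, 14.9% the ETS letters, 16.8% the RUNX letters and 7.15% the E-box. The *Mta1* window has a GC content of 81% and the *Mta2* window of 61.7%, where the median of all windows is 52.7%. RefSeq windows were found for 8 of the 10 members, not for *Phf6* and *Hdac1*. The matches describe the letters only.

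Levels are given in CPM, read counts divided by each library's own size, after TMM scaling, which corrects that size for a few very abundant genes. Changes are log2 fold changes in *VC Phf6,RE9a* relative to *WT Phf6,RE9a*. A gene was called higher or lower at a Benjamini-Hochberg adjusted p under 0.05 from edgeR's quasi-likelihood test over the 14169 genes tested. Total counts per library lay between 15675358 and 16817994. Of all genes tested, 21.5% were called higher and 22.7% lower in *VC Phf6,RE9a* cells, and the median log2 fold change was 0.01. The CPM values of the groups did not overlap for 57.3% of all genes tested, in either direction. The background of changed genes is therefore high, and the counts below are read against it.

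*Phf6*, the gene targeted by Cre, checks the labels. Its level was 67.8, 56.1 and 69.1 CPM in *WT Phf6,RE9a* replicates 1, 2 and 3, and 22.9, 18.3 and 19.7 CPM in *VC Phf6,RE9a* replicates 11, 12 and 13. All 3 *VC Phf6,RE9a* libraries lay below all 3 *WT Phf6,RE9a* libraries, at 31.5% of the *WT Phf6,RE9a* mean. The log2 fold change was -1.66 (95% interval -1.96 to -1.36, adjusted p = 9.32e-05 from edgeR). Counts are summed over the whole gene (X, 52912266 to 52956943 on GRCm38, 6946 exonic bases), so reads from exons that Cre leaves in place and reads from cells that kept the allele cannot be told apart. Per length, *Phf6* was the least abundant of the 10 members in both groups, with 9.20 ± 1.03 FPKM in *WT Phf6,RE9a* and 2.88 ± 0.33 FPKM in *VC Phf6,RE9a* cells (SD, n = 3). FPKM, fragments per kilobase of gene and scaled library size, is the unit in which levels of different genes are compared here.

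**Figure D1:**
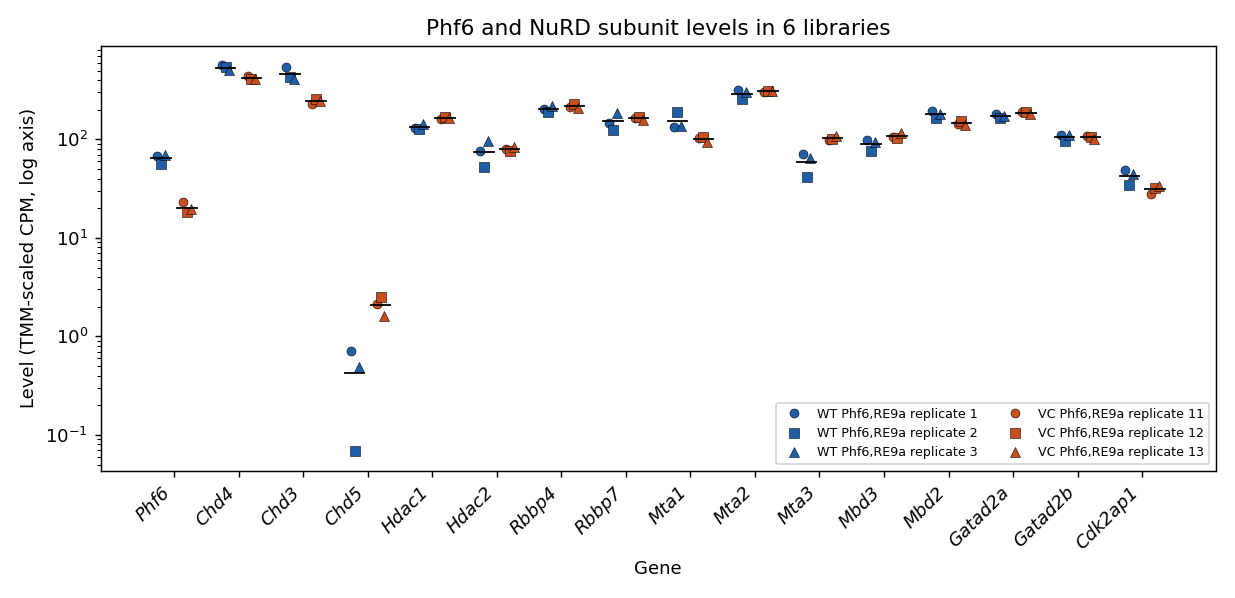
TMM-scaled CPM on a log axis of *Phf6*, the 9 NuRD members and 6 further NuRD subunits in each of the 3 *WT Phf6,RE9a* (blue) and 3 *VC Phf6,RE9a* (orange) libraries, with a bar at each group's mean. *Phf6* separates the groups by the widest gap among the 10 members, *Chd5* is near the floor in *WT Phf6,RE9a*, and most NuRD members lie at like levels in both groups.

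Of the 9 NuRD members, 1 was higher (*Hdac1*), 2 were lower (*Chd4* and *Mta1*) and 6 were not called in *VC Phf6,RE9a* cells. Against 21.5% of all tested genes higher and 22.7% lower, 1 and 2 of 9 are near the background. The changes were small. The median absolute log2 fold change of the 9 members was 0.11, against 0.44 over all genes tested. The latter include genes with far fewer reads, such as *Chd5*, and no median was computed for genes of like level.

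**Figure D2:**
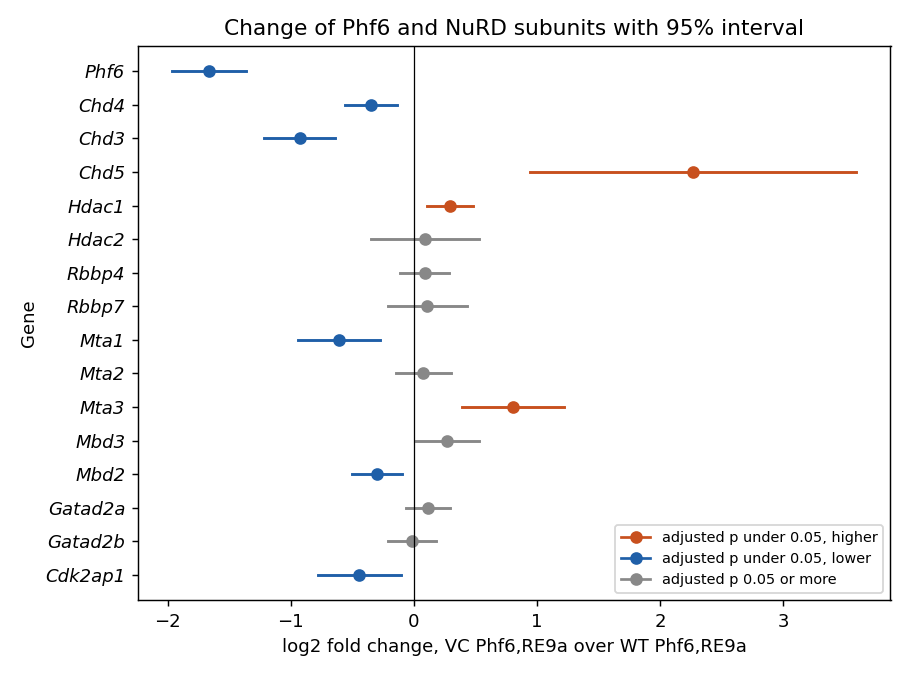
Log2 fold change in *VC Phf6,RE9a* relative to *WT Phf6,RE9a* with its 95% interval from edgeR for *Phf6* and 15 NuRD genes, colored by the call at an adjusted p under 0.05. *Phf6* is at -1.66, *Chd3* at -0.93 and *Mta1* at -0.61, while *Mta3* is at 0.80 and *Chd5*, with a wide interval, at 2.27.

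The remodeller *Chd4* supplies the ATPase of the complex and is essential in many cell types. Its level was 566, 538 and 503 CPM in *WT Phf6,RE9a* and 444, 406 and 409.9 CPM in *VC Phf6,RE9a* libraries. The groups did not overlap, and the level was 78.4% of the *WT Phf6,RE9a* mean (log2 fold change -0.35, SE 0.09, adjusted p = 0.0164 from edgeR). The call was lost without *VC Phf6,RE9a* replicate 12 (adjusted p = 0.0704) or replicate 13 (adjusted p = 0.0683), and with total counts in place of TMM (adjusted p = 0.0871). Its paralog *Chd3*, which takes the same place in other forms of NuRD, was at 545, 429 and 411 CPM in *WT Phf6,RE9a* and 230.0, 255 and 243 CPM in *VC Phf6,RE9a* libraries. Per length *Chd3* came to 0.915, 0.758 and 0.776 of *Chd4* in the *WT Phf6,RE9a* libraries and to at most 0.599 of it in the *VC Phf6,RE9a* libraries. Its log2 fold change was -0.93 (SE 0.12, adjusted p = 0.000911 from edgeR), which held under every alternative tried, with values from -1.01 to -0.77. *Chd5*, the neuronal paralog, rose from 11, 1 and 8 counts to 36, 43 and 27 counts per library (log2 fold change 2.27, SE 0.57, adjusted p = 0.0146 from edgeR). *Chd5* stayed at 0.32% or less of the summed CHD FPKM in every library. It overlaps *Gm13645*, whose reads may be among these few counts. The *Chd5* call was lost without *VC Phf6,RE9a* replicate 12 (adjusted p = 0.0540), and on the log2(FPKM + 1) scale, which shrinks changes of low genes, the change was 0.22. The sum of *Chd3*, *Chd4* and *Chd5* was 121 ± 12.9 FPKM in *WT Phf6,RE9a* and 80.3 ± 1.63 FPKM in *VC Phf6,RE9a* cells (SD, n = 3), with no overlap between libraries.

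The deacetylases remove acetyl groups from histone tails. *Hdac1* was at 132, 127 and 144 CPM in *WT Phf6,RE9a* and 162, 169 and 163 CPM in *VC Phf6,RE9a* libraries, higher in each of the latter. Its log2 fold change was 0.29 (SE 0.08, adjusted p = 0.0203 from edgeR). The call was lost without *WT Phf6,RE9a* replicate 1 (adjusted p = 0.0631) and without *VC Phf6,RE9a* replicate 11, 12 or 13 (adjusted p = 0.0614, 0.0772 and 0.0663). *Hdac2*, at 76.7, 53.1 and 95.3 CPM in *WT Phf6,RE9a* and 80.5, 76.0 and 82.9 CPM in *VC Phf6,RE9a* libraries, did not pass the test. The *VC Phf6,RE9a* libraries lay inside the *WT Phf6,RE9a* range, and the 95% interval of the *Hdac2* change was -0.35 to 0.53. *Hdac1* made up 70.3 ± 4.87% of the summed FPKM of the pair in *WT Phf6,RE9a* against 72.8 ± 1.28% in *VC Phf6,RE9a* cells (SD, n = 3), and the shares overlapped.

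The histone-binding subunits *Rbbp4*, the PHF6 contact, and *Rbbp7* are shared with several other chromatin complexes. *Rbbp4* was at 206, 189.8 and 217 CPM in *WT Phf6,RE9a* and 213, 228 and 208 CPM in *VC Phf6,RE9a* libraries. *Rbbp7* was at 148, 124 and 184 CPM in *WT Phf6,RE9a* and 165, 170.1 and 157 CPM in *VC Phf6,RE9a* libraries. For both genes the groups overlapped and the test was not passed. The 95% interval of the log2 fold change was -0.11 to 0.29 for *Rbbp4* and -0.21 to 0.43 for *Rbbp7*. Per length *Rbbp7* was the more abundant of the pair, with 68.9 ± 2.81% of their FPKM in *WT Phf6,RE9a* against 69.5 ± 0.43% in *VC Phf6,RE9a* cells (SD, n = 3). *Rbbp4* overlaps *Sync* and *Gm26722*, and *Rbbp7* overlaps *Txlng*. The strand setting of the counting is not given in the sources used here, so reads of *Rbbp4* and *Rbbp7* may belong in part to those genes. The same limit holds for *Chd4* (overlapping *Gm23751* and *Mir7045*), *Chd3* (*Gm22442*), *Chd5* (*Gm13645*) and *Gatad2b* (*4930537H20Rik*, *Gm45354* and *Gm45477*).

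*Mta1*, a scaffold subunit known from metastatic tumors, was at 133, 190.3 and 138 CPM in *WT Phf6,RE9a* and 104, 105 and 93.9 CPM in *VC Phf6,RE9a* libraries. *WT Phf6,RE9a* replicate 2 stood above the other libraries, and all 3 *VC Phf6,RE9a* libraries lay below the *WT Phf6,RE9a* range. The log2 fold change was -0.61 (SE 0.14, adjusted p = 0.0113 from edgeR) and -0.44 (adjusted p = 0.00541) without *WT Phf6,RE9a* replicate 2. The *Mta1* call held under each other scaling, filter, tool and left-out library, and was lost at an adjusted p under 0.01. *Mta2* was at 314, 259 and 303 CPM in *WT Phf6,RE9a* and 302, 311 and 310 CPM in *VC Phf6,RE9a* libraries (log2 fold change 0.07, adjusted p = 0.563 from edgeR), with overlapping groups. *Mta3* was at 71.2, 41.9 and 64.1 CPM in *WT Phf6,RE9a* and 99.3, 102 and 108 CPM in *VC Phf6,RE9a* libraries. *Mta3* was higher (log2 fold change 0.80, SE 0.18, adjusted p = 0.00887 from edgeR) and stayed called under each alternative tried, with a value of 0.60 without *WT Phf6,RE9a* replicate 2, its lowest library.

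Within the MTA family 1 gene was thus lower, 1 higher and 1 not called. *Mta1*, *Mta2* and *Mta3* together came to 133, 131 and 129 FPKM in *WT Phf6,RE9a* and 124, 128 and 124 FPKM in *VC Phf6,RE9a* libraries, slightly lower in each of the latter. The *Mta1* share was 37.5 ± 7.64% in *WT Phf6,RE9a* against 25.6 ± 1.44% in *VC Phf6,RE9a* cells (SD, n = 3). The *Mta3* share was 8.41 ± 2.18% and 15.3 ± 0.72%. *Mta2* held the largest share in all 6 libraries, from 47.8% to 60.0%.

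**Figure D3:**
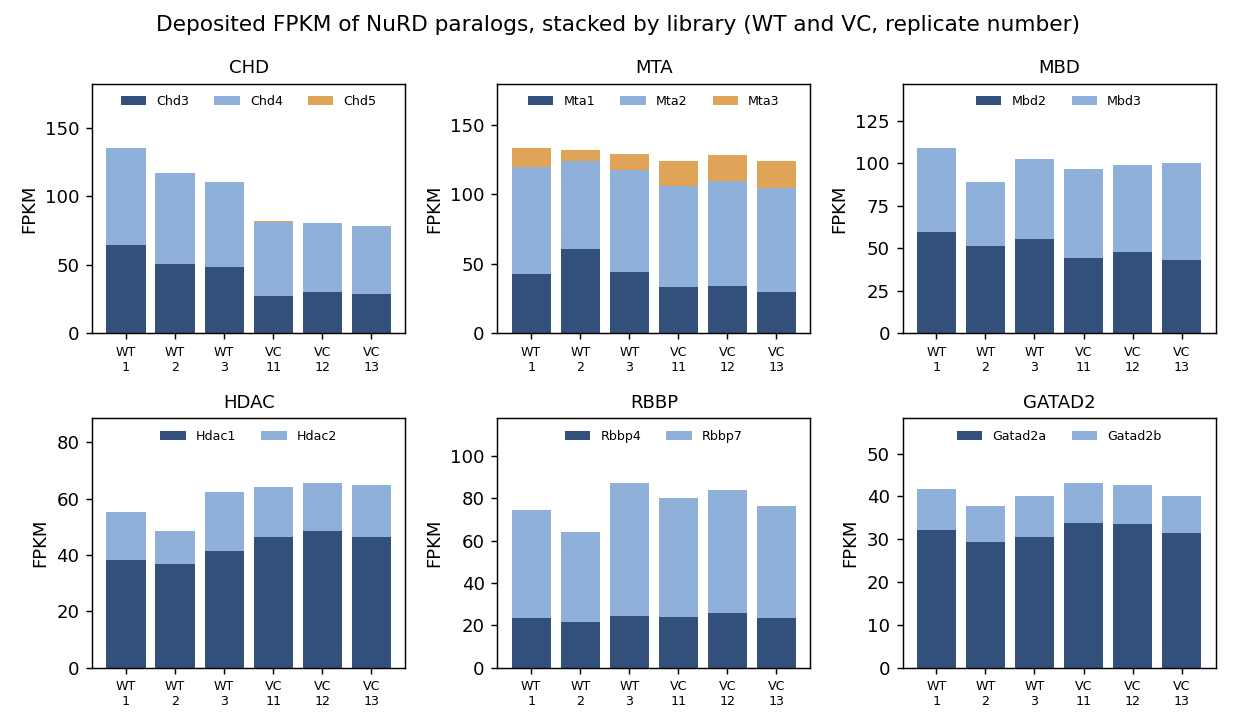
Deposited FPKM of the paralogs of each NuRD subunit, stacked from 0 for each library (WT and VC stand for *WT Phf6,RE9a* and *VC Phf6,RE9a*, with the replicate number). The CHD sum is lower in the VC libraries, the MTA bars have similar heights with a smaller *Mta1* and a larger *Mta3* part in VC, and in MBD the *Mbd2* part is smaller in VC.

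*Mbd3*, which defines the NuRD form without methyl-CpG binding, was at 97.6, 76.3 and 94.6 CPM in *WT Phf6,RE9a* and 106, 103 and 116 CPM in *VC Phf6,RE9a* libraries. The groups did not overlap, and the change did not pass the test (log2 fold change 0.27, SE 0.11, adjusted p = 0.0818 from edgeR). *Mbd2*, which binds methylated DNA, was at 192, 166 and 181 CPM in *WT Phf6,RE9a* and 144, 154 and 141 CPM in *VC Phf6,RE9a* libraries, and was lower (log2 fold change -0.30, SE 0.09, adjusted p = 0.0274 from edgeR). The *Mbd2* call was lost without *WT Phf6,RE9a* replicate 1 (adjusted p = 0.0776), without *VC Phf6,RE9a* replicate 11, 12 or 13 (adjusted p = 0.107, 0.0544 and 0.104) and with total counts in place of TMM (adjusted p = 0.236). *Mbd2* was the more abundant of the pair per length in every *WT Phf6,RE9a* library and *Mbd3* in every *VC Phf6,RE9a* library.

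*Gatad2a* and *Gatad2b* bridge the MBD protein and the remodeller. *Gatad2a* was at 179.6, 166 and 172 CPM in *WT Phf6,RE9a* and 192, 189 and 179.5 CPM in *VC Phf6,RE9a* libraries (log2 fold change 0.11, adjusted p = 0.270 from edgeR). *Gatad2b* lay between 96.9 and 111 CPM in the 6 libraries, with a log2 fold change of -0.01 (adjusted p = 0.909 from edgeR) and a 95% interval of -0.21 to 0.18. *Cdk2ap1*, a small accessory subunit, was at 48.7, 34.6 and 44.2 CPM in *WT Phf6,RE9a* and 28.0, 32.3 and 33.6 CPM in *VC Phf6,RE9a* libraries. It was called lower (log2 fold change -0.44, SE 0.15, adjusted p = 0.0408 from edgeR). The *Cdk2ap1* call was lost in every fit that left out 1 library except that without *WT Phf6,RE9a* replicate 2, with adjusted p up to 0.145, and with upper quartile scaling (adjusted p = 0.0533) or total counts (adjusted p = 0.148). Of the 6 further subunits, 2 were thus higher (*Chd5* and *Mta3*), 3 lower (*Chd3*, *Mbd2* and *Cdk2ap1*) and 1 not called (*Gatad2b*). Called were 83.3% of these 6, against 21.5% of all genes tested higher and 22.7% lower. The median absolute log2 fold change of these 6 was 0.62, against 0.44 over all genes tested.

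The ratio of the paralogs within each library does not depend on the scaling between libraries. *Mta1* over *Mta2* was 0.558, 0.968 and 0.602 in *WT Phf6,RE9a* and 0.455, 0.445 and 0.40 in *VC Phf6,RE9a* libraries. *Mta3* over *Mta2* was 0.175, 0.126 and 0.164 against 0.254, 0.253 and 0.269. *Chd3* over *Chd4* was 0.915, 0.758 and 0.776 against 0.493, 0.599 and 0.564. These 3 ratios did not overlap between the groups, and neither did *Mbd2* over *Mbd3* (1.25 ± 0.08 against 0.840 ± 0.086, SD, n = 3) and *Gatad2b* over *Gatad2a* (0.302 ± 0.015 against 0.277 ± 0.001). These are read against the 57.3% of all genes tested whose CPM did not overlap, and no such share was computed for ratios. The ratios *Rbbp7* over *Rbbp4* and *Hdac2* over *Hdac1* overlapped. The exact 2-sided permutation test of 3 against 3 libraries gave p = 0.1, the smallest it can give, for 5 of the 7 pairs, which is 0.14 after Benjamini-Hochberg adjustment over the 7 pairs. With 3 libraries per group this test cannot reach 0.05.

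Ordered by mean FPKM in *WT Phf6,RE9a* cells, the members were *Mta2* (71.0 ± 7.27), *Chd4* (66.4 ± 4.24), *Rbbp7* (52.0 ± 10.2), *Mta1* (49.2 ± 10.1), *Mbd3* (44.8 ± 5.86), *Hdac1* (38.7 ± 2.36), *Gatad2a* (30.7 ± 1.37), *Rbbp4* (23.2 ± 1.53), *Hdac2* (16.7 ± 4.67) and *Phf6* (SD, n = 3). From *Mta2* down to *Hdac1* each gene overlapped the next in this order between libraries, and below *Hdac1* the neighbours did not overlap. In *VC Phf6,RE9a* cells *Mta2* stood alone at the top with 74.2 ± 1.42 FPKM. It was followed by *Rbbp7* (55.7 ± 2.52), *Mbd3* (53.7 ± 2.99) and *Chd4* (51.7 ± 2.59), neighbours that overlapped, so *Chd4* went from rank 2 to rank 4. *Mta1* went from rank 4 to rank 7 with 32.1 ± 2.09 FPKM, overlapping *Gatad2a* at 33.0 ± 1.25.

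The libraries of the *WT Phf6,RE9a* group differed among themselves in some members. Replicate 2 was the lowest and replicate 3 the highest of the group for *Phf6*, *Rbbp4*, *Rbbp7*, *Hdac1* and *Hdac2*, which is 4 of the 9 NuRD members, against 21% of all genes tested. The same order was seen in 18 of 19 proliferation genes, including *Mki67*. In *VC Phf6,RE9a* cells 10 of these 19 genes were higher and 0 lower by edgeR (0 lower also by DESeq2 and at an unadjusted p under 0.05), led by *Aurka* (log2 fold change 1.03, adjusted p = 0.00486 from edgeR) and *Birc5* (0.79, adjusted p = 0.00706), both of which act in mitosis. With 1 library left out the count of higher genes ran from 3 without *VC Phf6,RE9a* replicate 12 to 17 without *WT Phf6,RE9a* replicate 3, and it was 4 without *WT Phf6,RE9a* replicate 1 or *VC Phf6,RE9a* replicate 11, 5 without replicate 13 and 6 without replicate 2. With all libraries, 21.5% of all genes tested were higher and 22.7% lower. The summed level of the 19 genes ran from 2842 to 4316 CPM in *WT Phf6,RE9a* and from 4674 to 4949 CPM in *VC Phf6,RE9a* libraries. The part of proliferation in the levels of *Rbbp7*, *Hdac1* and *Hdac2* was not tested.

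Markers of cell types also moved between the groups. Of the 3 leukocyte genes *Ptprc* and *Spi1* were read in all 6 libraries and not called. *Itgam*, which encodes the myeloid integrin CD11b, was higher, from 1.10, 1.29 and 4.72 CPM to 19.7, 11.3 and 4.63 CPM (log2 fold change 2.31, adjusted p = 0.0272 from edgeR), with overlapping groups. The *Itgam* call was lost without *WT Phf6,RE9a* replicate 1 or 2 or *VC Phf6,RE9a* replicate 11 or 12 (adjusted p up to 0.0950). Among 8 genes of mast cells and basophils, 7 fell in *VC Phf6,RE9a* libraries (summed level 17510 to 28708 CPM in *WT Phf6,RE9a* and 4088 to 4448 CPM in *VC Phf6,RE9a* libraries), and *Ms4a2* was not called. All 7 granulocyte genes (156 to 501 CPM against 988 to 3517 CPM) and all 7 erythroid genes (515 to 817 CPM against 2920 to 3476 CPM) were higher. The shares over all genes tested were 21.5% higher and 22.7% lower. The call of the granulocyte gene *Mpo* was lost without *WT Phf6,RE9a* replicate 1 or *VC Phf6,RE9a* replicate 11 (adjusted p up to 0.0612). The 5 B cell genes went from at most 1.10 CPM in sum to between 8.5 and 24.6 CPM, and 4 of them were tested and higher. Of the 5 T cell genes only *Lck* was tested, and it was higher (sum of the list at most 1.45 CPM against 6.59 to 8.03 CPM). Of 6 macrophage genes 5 were tested and 0 called by edgeR, DESeq2 or at an unadjusted p under 0.05 (9.26 to 16.9 CPM against 18.4 to 20.5 CPM). The stroma and endothelium lists came to at most 4.95 and 1.57 CPM in any library, with *Col3a1* and *Emcn* at 0 in all 6, and *Cxcl12* of the stroma list was higher. In bulk RNA, fewer cells of a type and less RNA per cell cannot be told apart, and the part of these cell types in the changes of *Chd3*, *Chd4*, *Mta1*, *Mta3* and *Hdac1* was not tested.

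Other complexes that share subunits or partners with NuRD are given beside it. Their counts stand beside 21.5% of all genes tested called higher and 22.7% lower. In each list the pair of genes with the smallest p is named by rule, and further genes were named after their values were seen. SIN3 is a corepressor that also contains HDAC1, HDAC2 and the RBBP proteins. Of 14 further genes listed for SIN3, 1 was higher, 3 were lower and 10 were not called, with a median log2 fold change of -0.10. *Sap18* fell from 74.5, 64.2 and 70.5 CPM to 42.6, 42.4 and 42.6 CPM (log2 fold change -0.71, adjusted p = 0.000613 from edgeR). *Sap130* was also lower (log2 fold change -0.34, adjusted p = 0.00854 from edgeR). Both encode SIN3-associated proteins. *Ing1* was the remaining gene called lower and *Brms1l* the gene called higher. The *Brms1l* call (log2 fold change 0.44, adjusted p = 0.0411 from edgeR) was lost in 5 of the 6 fits that left out 1 library, all but that without *WT Phf6,RE9a* replicate 3, with adjusted p up to 0.134. The *Ing1* call was lost without any 1 of the *VC Phf6,RE9a* libraries (adjusted p up to 0.0831).

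CoREST pairs HDAC1 and HDAC2 with the lysine demethylase KDM1A. Of 10 genes 1 was higher, 4 lower and 5 not called, with a median log2 fold change of -0.28. *Zmym2*, a zinc finger partner of KDM1A, went from 80.7, 101 and 87.3 CPM to 41.0, 41.5 and 39.9 CPM (log2 fold change -1.13, adjusted p = 0.000162 from edgeR). *Hmg20b*, a DNA-binding subunit, was higher (log2 fold change 0.53, adjusted p = 0.00168 from edgeR). *Kdm1a* itself was called lower, by a small amount (log2 fold change -0.25, adjusted p = 0.0281 from edgeR). The *Kdm1a* call was lost without *WT Phf6,RE9a* replicate 1 or any 1 of the *VC Phf6,RE9a* libraries (adjusted p up to 0.106). *Phf21a* and *Zmym3* were the other genes called lower.

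NCoR and SMRT recruit HDAC3 to nuclear receptors. Of 6 genes 1 was higher, *Gps2* (log2 fold change 0.63, adjusted p = 0.00190 from edgeR), and 2 were lower, *Tbl1x* (-0.51, adjusted p = 0.00251) and *Tbl1xr1* (-0.40, adjusted p = 0.0120). The *Tbl1xr1* call was lost without *VC Phf6,RE9a* replicate 11 (adjusted p = 0.0606). MiDAC, a mitotic deacetylase complex with HDAC1 and HDAC2, had 0 of 3 genes called by edgeR and by DESeq2, and 1 at an unadjusted p under 0.05. Its smallest p belonged to *Trerf1* (log2 fold change 1.46, adjusted p = 0.0709 from edgeR) and *Dnttip1* (-0.21, adjusted p = 0.188).

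RBBP4 and RBBP7 also serve in PRC2, in chromatin assembly factor 1 and in NURF. The 9 genes taken for their partners belong to these complexes, except *Hat1*. Of these 9 genes, 0 were called higher and 2 lower by edgeR and by DESeq2, and 2 were higher at an unadjusted p under 0.05. *Smarca1*, a NURF remodeller, had 5.71, 1.49 and 4.6 CPM in *WT Phf6,RE9a* and 0 counts in all 3 *VC Phf6,RE9a* libraries, at least 22.3-fold lower, with 0 set to the limit of 3 counts per library. *Smarca1* lies before *Phf6* on chromosome X (47809368 to 47892974 on GRCm38), beyond the 2000 kb looked at below. *Hs6st2*, on the same side of *Phf6*, also had 0 counts in all *VC Phf6,RE9a* libraries, and a link to their place was not tested. *Bptf*, the large NURF subunit, was at 205, 209.9 and 174 CPM against 142, 142 and 143 CPM (log2 fold change -0.46, adjusted p = 0.00582 from edgeR). The PRC2 genes *Ezh2*, *Eed* and *Suz12* were not called, with log2 fold changes of 0.28, 0.02 and -0.16.

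Of 9 zinc finger and bromodomain factors known to recruit NuRD, 5 were tested. *Ikzf1*, the lymphoid regulator Ikaros, was lower (396, 310.4 and 351 CPM against 189, 209.7 and 170.3 CPM, log2 fold change -0.89, adjusted p = 0.000971 from edgeR). *Bcl6*, a repressor of germinal center B cells, was higher from a level near 1 CPM (log2 fold change 2.02, adjusted p = 0.0122 from edgeR), and *Zfpm1*, the GATA cofactor FOG1, was higher (log2 fold change 0.52, adjusted p = 0.0149 from edgeR). The *Zfpm1* call was lost without *VC Phf6,RE9a* replicate 11 or 12 (adjusted p up to 0.0551). *Bcl11a* and *Zmynd8* were not called, and *Zfpm2*, *Bcl11b*, *Sall1* and *Sall4* had too few reads to be tested.

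PHF genes share only the name of the PHD finger, a zinc finger that often reads histone tails. Of the 22 such genes, 21 were tested, among them *Phf6*, and 5 were higher, 10 lower and 6 not called. This is 71.4% called, where 21.5% of all genes tested were higher and 22.7% lower. *Phf7*, a gene known from the testis, had the largest decrease among them, from 16.3, 16 and 19.4 CPM to 3.13, 4.89 and 4.28 CPM (log2 fold change -2.07, adjusted p = 0.000300 from edgeR), followed by *Phf6*. The 5 called higher were *Phf20l1*, *Phf5a*, *Phf10*, *Phf11b* and *Phf11c*, of which *Phf11b* was lost without *VC Phf6,RE9a* replicate 11 (adjusted p = 0.0526). Among the lower calls, *Phf3* and *Phf14* were lost without *WT Phf6,RE9a* replicate 1 or any 1 of the *VC Phf6,RE9a* libraries (adjusted p up to 0.103). *Phf2* was lost without *VC Phf6,RE9a* replicate 13 (adjusted p = 0.0516). With 1 library left out, 4 to 6 PHF genes were higher and 7 to 11 lower.

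**Figure D4:**
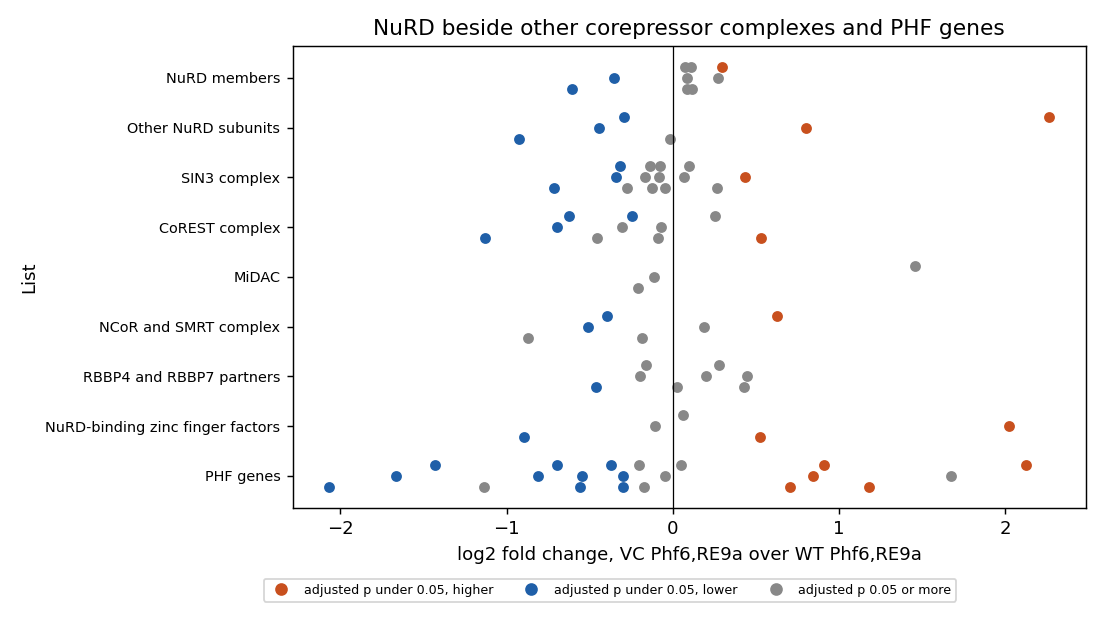
Log2 fold change in *VC Phf6,RE9a* relative to *WT Phf6,RE9a* for each tested gene of NuRD, related complexes and the PHF genes, 1 point per gene (spread vertically only for clarity), colored by the call at an adjusted p under 0.05. *Smarca1*, at 0 in all *VC Phf6,RE9a* libraries, is not drawn, and the 9 NuRD members lie between -0.61 and 0.29.

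Genes beside *Phf6* on chromosome X were checked for a change of the region. Within 1000 kb of *Phf6* lay 55 genes, of which 8 were tested, 3 were called higher (*Gm14586*, *Fam122b* and *Mospd1*) and 0 lower by edgeR. DESeq2 gave the same counts, and 4 were higher and 2 lower at an unadjusted p under 0.05. Among all genes tested, 21.5% were called higher and 22.7% lower by edgeR. The nearest tested genes before *Phf6* were the pseudogenes *Rps2-ps13*, 12.8 kb away (log2 fold change 0.21, adjusted p = 0.0923 from edgeR), and *Gm14586*, 140 kb away (0.85, adjusted p = 0.0275). The *Gm14586* call was lost without *WT Phf6,RE9a* replicate 3 or any 1 of the *VC Phf6,RE9a* libraries (adjusted p up to 0.0843). The nearest after it were *Hprt*, a purine salvage enzyme 31.2 kb away, and *C430049B03Rik*, 98.1 kb away. *Hprt* was at 96.2, 97.5 and 95.8 CPM in *WT Phf6,RE9a* and 83.1, 87.7 and 86.7 CPM in *VC Phf6,RE9a* libraries, groups that did not overlap, with a log2 fold change of -0.17 (adjusted p = 0.0914 from edgeR). *C430049B03Rik* was near 1 CPM in both groups. Farther out, *Hs6st2*, a heparan sulfate sulfotransferase 1230.4 kb before *Phf6*, had 916, 363 and 358 counts in *WT Phf6,RE9a* and 0 in all *VC Phf6,RE9a* libraries, at least 199-fold lower with 3 counts per library as the limit. Without *WT Phf6,RE9a* replicate 1, its highest library, the bound was 131-fold. The tested genes on either side of *Hs6st2*, *Mbnl3* and *Gpc4*, were not called.

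**Figure D5:**
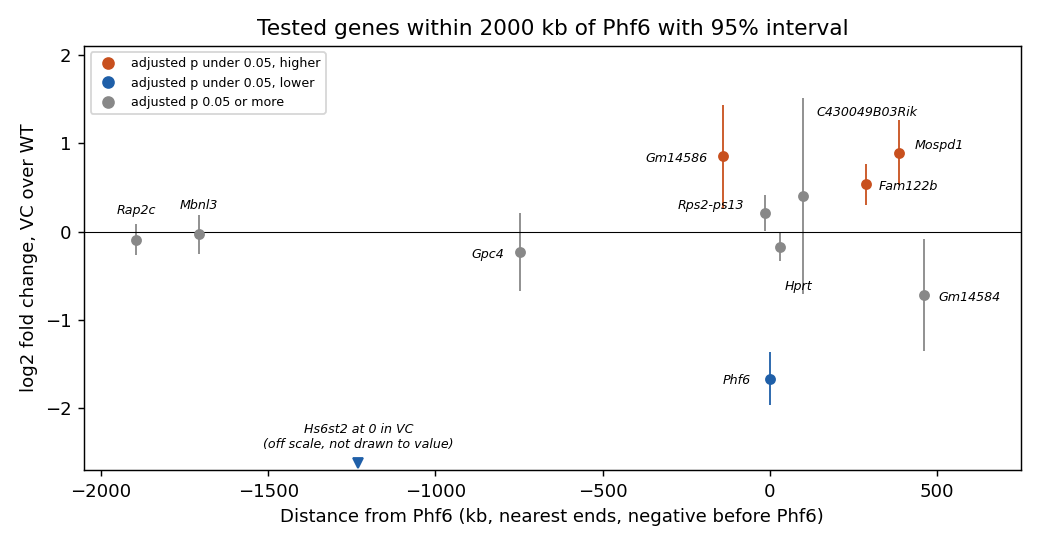
Log2 fold change in *VC Phf6,RE9a* relative to *WT Phf6,RE9a* with 95% interval for the 11 tested genes within 2000 kb of *Phf6*, against their distance from it in kb (negative before *Phf6*). *Phf6* at -1.66 stands below its nearest neighbours, and *Hs6st2*, at 0 in *VC Phf6,RE9a*, is marked at the lower edge and not drawn to its value.

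The genes whose levels ran most alike to *Phf6* over the 6 libraries were *Il2rg*, *Slc39a6* and *Gm43031*. Likeness was the Euclidean distance between log2 CPM values centred on each gene's mean, which came to 0.22, 0.23 and 0.24. *Il2rg*, the common chain of several interleukin receptors, went from 152, 131 and 158 CPM to 46.2, 42.3 and 39.6 CPM. *Slc39a6*, a zinc transporter, went from 27.4, 25.8 and 29.5 CPM to 8.97, 7.87 and 7.37 CPM. *Gm43031* is annotated as a sense intronic RNA, whose reads could come from its host gene, and had 4.35 and 1.18 CPM on average. These genes were found by their likeness to *Phf6*, so their values are a description.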

How the data were processed

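RNA was sequenced from sorted GFP+ leukemia cells of 2 groups of 3 libraries. The authors deposited read counts per Ensembl gene without normalization, and FPKM values that equal those counts divided by the exonic gene length and by a common total scaled with DESeq2 size factors. Columns with the authors' own comparison (means, log2 fold changes, p-values) were not used. GEO's processing notes name Bowtie 0.12.0 and mm8, but 98.33% of the table's genes found in GENCODE M21 have identical ends there, and coordinates are therefore stated on GRCm38. The counting tool, annotation release and strand setting are not given in the sources used here.

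In R 4.3.3, edgeR 4.0.16 removed low genes (filterByExpr), set TMM factors and ran the quasi-likelihood test, with Benjamini-Hochberg adjustment at 0.05. The fit was run on simulated counts with far fewer changed genes than were called here, which does not test the scaling at such a share. Standard errors are the log2 fold change over the square root of F, and log2 CPM had a prior count of 2. Paralog ratios used FPKM with a pseudocount of 0.1. A count of 0 allows up to 3 counts, at most 0.204 CPM, and covers counting error only. Alternatives were other scalings and filters, DESeq2 1.42.0, limma 3.58.1 on log2(FPKM + 1), a threshold of 0.01, and each library left out. Members, gene lists, tests and the rule for named genes were chosen with earlier results of these data known. The rule named all members and further subunits, the 2 smallest p in each complex and in the proliferation list, the 2 nearest tested genes on each side of *Phf6*, neighbours with a log2 fold change beyond 2, and the 3 genes most alike to *Phf6*. Figures were drawn with matplotlib 3.10.9.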

Additional observations from a re-analysis of the deposited data

How the results depend on the processing

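Under the 13 alternatives *Phf6* remained lower, with log2 fold changes from -1.76 to -1.39, the latter from limma on log2(FPKM + 1). With total counts in place of TMM the median of all genes moved by 0.15, the split of calls went from 3047 higher and 3213 lower to 4048 and 2474, and 3 NuRD members were higher (*Hdac1*, *Mbd3*, *Gatad2a*) and 1 lower (*Mta1*), and 1 further subunit was lower. Relative to that shift, *Mbd3*, *Gatad2a* and *Chd4* changed by 0.27, 0.11 and -0.35. At an adjusted p under 0.01 the counts were 0 higher and 0 lower for the members, and 1 and 1 for the further subunits. With at least 10 counts in every library *Chd5* was not tested, so 1 further subunit was higher. With 1 library left out, 0 to 1 members were higher and 1 to 2 lower, and 1 to 2 further subunits were higher and 1 to 3 lower. The same fits gave 0 to 1 genes higher in SIN3, 1 to 2 in CoREST, 0 to 1 in MiDAC, 1 to 2 in NCoR and SMRT with 1 to 3 lower, 0 to 4 among the RBBP4 and RBBP7 partners and 1 to 2 among the zinc finger factors. The 4 came without *WT Phf6,RE9a* replicate 3. Fits with fewer libraries have fewer degrees of freedom, and the cause of single changes was not tested.

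The direction was not stable for small changes. Without *WT Phf6,RE9a* replicate 2 the log2 fold change was -0.026 for *Rbbp7*, -0.12 for *Hdac2* and -0.015 for *Mta2*, and the ratio of *Rbbp7* over *Rbbp4* changed by -0.044 (range -0.044 to 0.14 over left-out libraries). Over left-out libraries the ranges were -0.026 to 0.26 for *Rbbp7*, -0.12 to 0.29 for *Hdac2*, -0.015 to 0.12 for *Mta2* and -0.084 to 0.013 for *Gatad2b*. *Gatad2b* was at 0.023 with upper quartile scaling and at 0.13 with total counts. The other paralog ratios kept their direction. No paired analysis was possible because the groups share no replicate numbers. Leaving out each *WT Phf6,RE9a* library, chosen after seeing the data, moved the bounds to between 131-fold and 238-fold for *Hs6st2* and to between 17.2-fold and 29.2-fold for *Smarca1*.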
